A study of Mus musculus with 26 samples.

Results

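In EML cells the CR Sca1lo fraction was compared with the 2 fractions on either side of it, Sca1hi and EryCP, to find genes that were highest or lowest in the middle fraction instead of running steadily from one end to the other. The comparison used the 9 arrays of the first of 3 array sets, 3 arrays for each fraction, out of 26 arrays in the whole series. All were chosen by their labels, without reference to any measured value. The contrast was the CR Sca1lo mean minus the midpoint of the Sca1hi and EryCP means. A gene was called a peak where CR Sca1lo was higher than Sca1hi and also higher than EryCP, with both comparisons called, and a dip where it was lower than both.

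EML is a mouse cell line that grows in stem cell factor and can form erythroid, myeloid and lymphoid cells. It was derived from bone marrow cells carrying a dominant-negative retinoic acid receptor, so every fraction shares that transgene and is drawn from a line in culture, not from an animal. The cells were kept in IMDM with horse serum and medium conditioned with SCF, and were separated by flow cytometry on Sca1, CD34 and cKit. The labels name the fractions Sca1hi, CR Sca1lo and EryCP without spelling out CR or EryCP, give no time or added factor for these 3, and do not say whether replicates came from separate cultures, so p-values measure only the spread between these samples. The other arrays served for comparison. They held a repeat of EryCP and Ediff (CD34-negative cKit-negative cells after EryCP were differentiated with erythropoietin, Epo) in the second set, and CD34+ CD103- cells, CD34- CD103- cells and CD34- CD103- cells differentiated with Epo in the third set.

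Blood progenitors are described as passing from multipotent cells, which carry Sca1 in the mouse, to cells restricted to single lineages, and progenitors often transcribe genes of several lineages at low level before one programme takes over. GATA factors drive erythroid, megakaryocytic and mast cell genes, while C/EBP factors drive granulocytic genes. A gene that runs steadily from one end fraction to the other would lie between its end values in the middle fraction. A value outside both ends departs from that steady pattern. Whether CR Sca1lo is an intermediate stage between the other fractions was not tested.

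Levels are log2 signal relative to each array's 75th percentile of signal, so a value of 0 equals that percentile and each unit is a 2-fold step. Of 26468 genes tested, 4853 (18.3%) lay off the midpoint at an adjusted p under 0.05, 2742 above it (10.4%) and 2111 below it (7.98%). CR Sca1lo differed from Sca1hi in 17.8% of genes (9.69% higher, 8.09% lower) and from EryCP in 20.3% (11.4% higher, 8.94% lower). Peaks numbered 1064 (4.02% of the genes tested) and dips 917 (3.46%). Of these, 64 peaks (0.242%) and 136 dips (0.514%) differed at least 2-fold from both flanks. The median midpoint difference was 0.54 over peaks, -0.67 over dips and 0.05 over all genes. All 3 CR Sca1lo arrays lay above all 6 flanking arrays in 745 of the peaks (70%), and below all 6 in 715 of the dips (78%). Over all genes such separation occurred in 4.33% and 3.29%. Peaks and dips were picked on these same arrays, so their separation follows in part from the selection and adds no support. The counts of peaks and dips depended on how slides were treated. Each of 3 slides held 1 array of each fraction, and slide 2 had 91.3 to 93.8% of probes well above background against 80.2 to 87% on the others. Without slide as a block there were 101 peaks and 218 dips. Without slide 1, 2 or 3, fitted on 2 arrays a fraction, there were 70, 201 and 255 peaks and 141, 289 and 382 dips. Scaling on spike-in probes gave 164 peaks and 149 dips, and normexp correction of the median signals gave 0 of each. The same correction without spots of outlying background gave 1455 peaks and 965 dips.

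**Figure D1:**
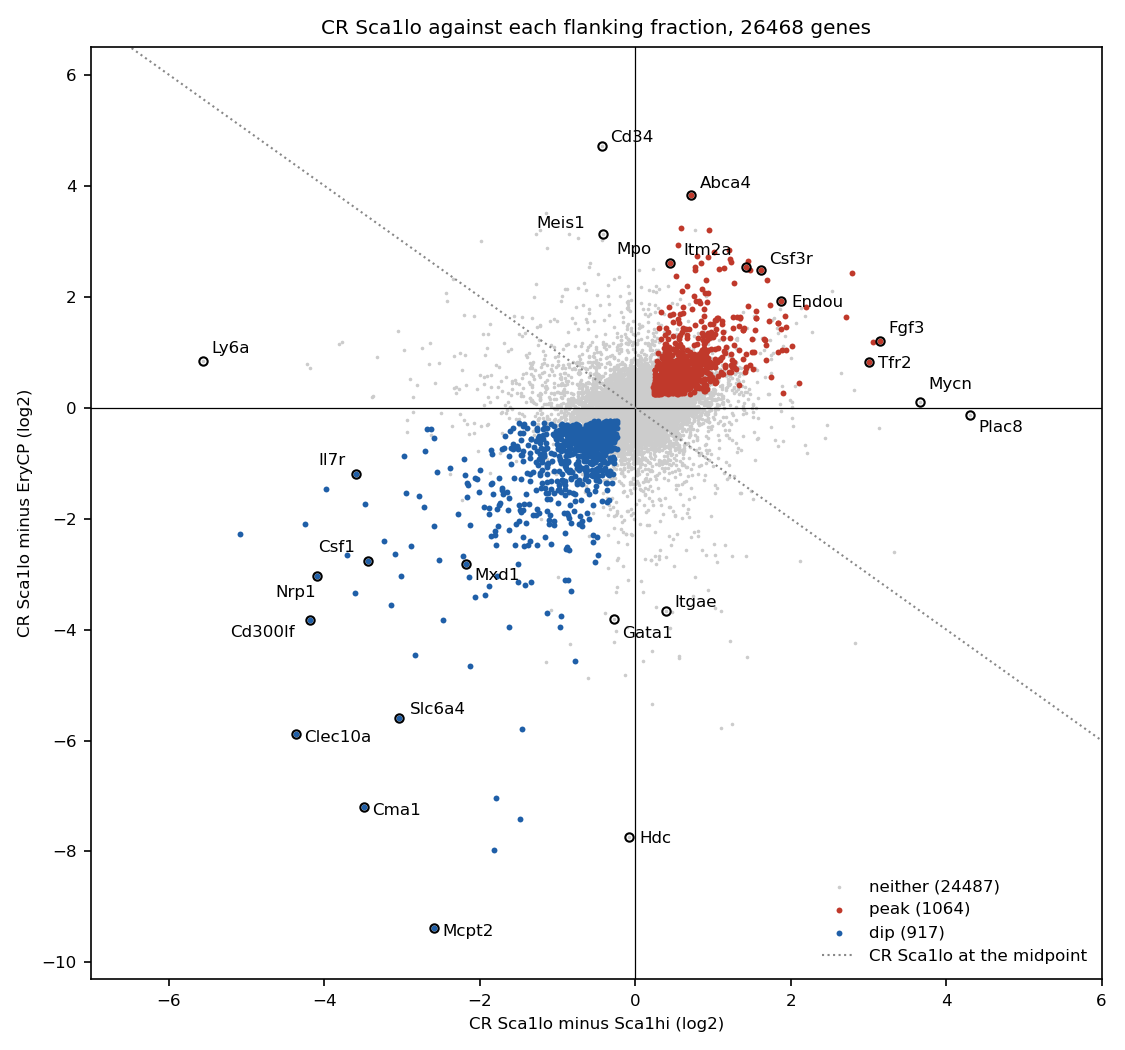
Each point is 1 of the 26468 genes tested: the horizontal axis is CR Sca1lo minus Sca1hi and the vertical axis CR Sca1lo minus EryCP, both log2, and the dotted line marks CR Sca1lo at the midpoint. Peaks (1064) lie at the upper right and dips (917) at the lower left, and the dips reach farther from the centre than the peaks.

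The sorting markers were read first, as a check of the labels. Ly6a, which encodes Sca1, measured 4.17, 4.18 and 4.1 in Sca1hi, -1.49, -1.43 and -1.32 in CR Sca1lo and -2.44, -2.12 and -2.21 in EryCP. The groups did not overlap, and CR Sca1lo was 5.56 below Sca1hi on the log2 scale and 0.84 above EryCP (adjusted p = 1.1e-05 and 0.00145). Cd34, a progenitor surface sialomucin, measured 6.83, 6.65 and 6.47, then 6.27, 6.34 and 6.05, then 1.28, 1.15 and 2.06, so CR Sca1lo stayed near Sca1hi (difference -0.43 ± 0.15 SE, adjusted p = 0.101) and 4.72 above EryCP. Itgae, which encodes CD103, was 3.66 lower in CR Sca1lo than in EryCP (adjusted p = 1.84e-05). Kit, the SCF receptor, measured 5.16, 5.2 and 4.76, then 4.66, 4.44 and 4.39, then 4.96, 4.84 and 5.33: it was a dip by -0.55 ± 0.12 (SE) on each side, and its CR Sca1lo arrays lay below all others. That call was kept in 10 of 25 alternative settings.

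Of 3 genes proposed as markers of the middle fraction, only Fgf3 peaked there. Fgf3, a fibroblast growth factor ligand, measured -1.38, -1.68 and -2.36 in Sca1hi, 1.4, 1.52 and 1.13 in CR Sca1lo, and 0.08, -0.08 and 0.43 in EryCP. Every CR Sca1lo array stood above every flanking array. The level was 8.9-fold that in Sca1hi (log2 3.15 ± 0.13 SE, adjusted p = 8.43e-05) and 2.3-fold that in EryCP (1.2 ± 0.13, adjusted p = 0.00139). Plac8, a cysteine-rich protein of myeloid and lymphoid cells, measured -2.16, -2.55 and -2.66, then 2.1, 2.05 and 1.4, then 2.3, 1.58 and 2.1. Mycn, the MYC-family factor N-Myc, measured -2.84, -2.92 and -3.11, then 0.93, 0.83 and 0.35, then 0.86, 0.29 and 0.63. For both, CR Sca1lo and EryCP overlapped (differences -0.14 ± 0.14 and 0.11 ± 0.1, adjusted p = 0.53 and 0.491) while Sca1hi lay 19.8-fold and 12.7-fold lower: a step up, not a peak. A second Mycn probe gave 1.45 above Sca1hi and 0.55 above EryCP. No other FGF ligand or receptor list member was a peak except Fgfrl1, a receptor-like protein without a kinase (0.54 above Sca1hi and 0.76 above EryCP). Of 24 FGF ligands, receptors and feedback genes measured, 3 lay above the midpoint and 3 below. That was 12.5% each way, near the 10.4% and 7.98% of all genes.

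The promoters of some of the largest peaks held AGATAA, the letters GATA factors prefer, in the 250 bases before a start site. In the RefSeq windows of build GRCm38.p6, on both strands, the motif was in 7 of the 35 windows matched to 30 of the 64 peaks at least 2-fold above both flanks (20%), 46 of 709 windows of all peaks (6.49%), 8 of 129 windows of dips at least 2-fold below both (6.2%), and 3281 of 32841 windows of all genes (9.99%). Over the genes tested it was in 7.88%. The share was not particular to the strong peaks. Genes of mast cells, basophils and eosinophils, which lay mostly below the midpoint, had the motif in 4 of 17 windows (23.5%). The windows below are those of 4 strong peaks that hold it, in capitals either as AGATAA or as its reverse complement TTATCT; the start site follows the last base. They are at chr7:144838362-144838611 (plus strand) for Fgf3, chr1:133690109-133690358 (minus) for Lax1, chr10:6980466-6980715 (minus) for Ipcef1 and chrX:107403361-107403610 (minus) for Itm2a; Lax1 and Ipcef1 have other start sites whose windows lack the motif. A match is a description of letters, not a bound site. Of 4 motifs searched on both strands, AGATAA is printed because its share differed most after the values were seen. In the windows of the peaks at least 2-fold above both flanks, CACGTG was in 0% (6.02% of all windows), TGACTCA in 2.86% (4.46%) and CCGGAAGT in 0% (2.88%).
Fgf3: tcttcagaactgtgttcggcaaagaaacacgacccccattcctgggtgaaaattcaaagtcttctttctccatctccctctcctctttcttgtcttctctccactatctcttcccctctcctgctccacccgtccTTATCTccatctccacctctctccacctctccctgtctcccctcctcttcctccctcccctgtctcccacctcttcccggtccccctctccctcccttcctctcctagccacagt
Lax1: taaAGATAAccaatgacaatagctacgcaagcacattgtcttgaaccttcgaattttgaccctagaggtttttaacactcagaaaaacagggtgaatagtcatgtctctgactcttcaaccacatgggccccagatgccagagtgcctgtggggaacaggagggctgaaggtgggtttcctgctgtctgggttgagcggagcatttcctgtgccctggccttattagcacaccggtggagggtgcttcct
Ipcef1: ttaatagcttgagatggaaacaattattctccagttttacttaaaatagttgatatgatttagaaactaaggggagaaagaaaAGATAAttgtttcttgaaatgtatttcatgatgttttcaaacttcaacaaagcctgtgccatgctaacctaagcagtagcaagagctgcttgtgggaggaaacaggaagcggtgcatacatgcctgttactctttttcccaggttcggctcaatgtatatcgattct
Itm2a: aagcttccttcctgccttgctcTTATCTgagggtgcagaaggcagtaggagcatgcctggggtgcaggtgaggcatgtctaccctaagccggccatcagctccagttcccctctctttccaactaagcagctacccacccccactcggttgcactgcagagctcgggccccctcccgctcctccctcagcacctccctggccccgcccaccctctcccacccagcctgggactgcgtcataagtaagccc
The motif ended 110 bases before the Fgf3 start site, 242 before that of Lax1, 162 before that of Ipcef1 and 223 before that of Itm2a.

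**Figure D2:**
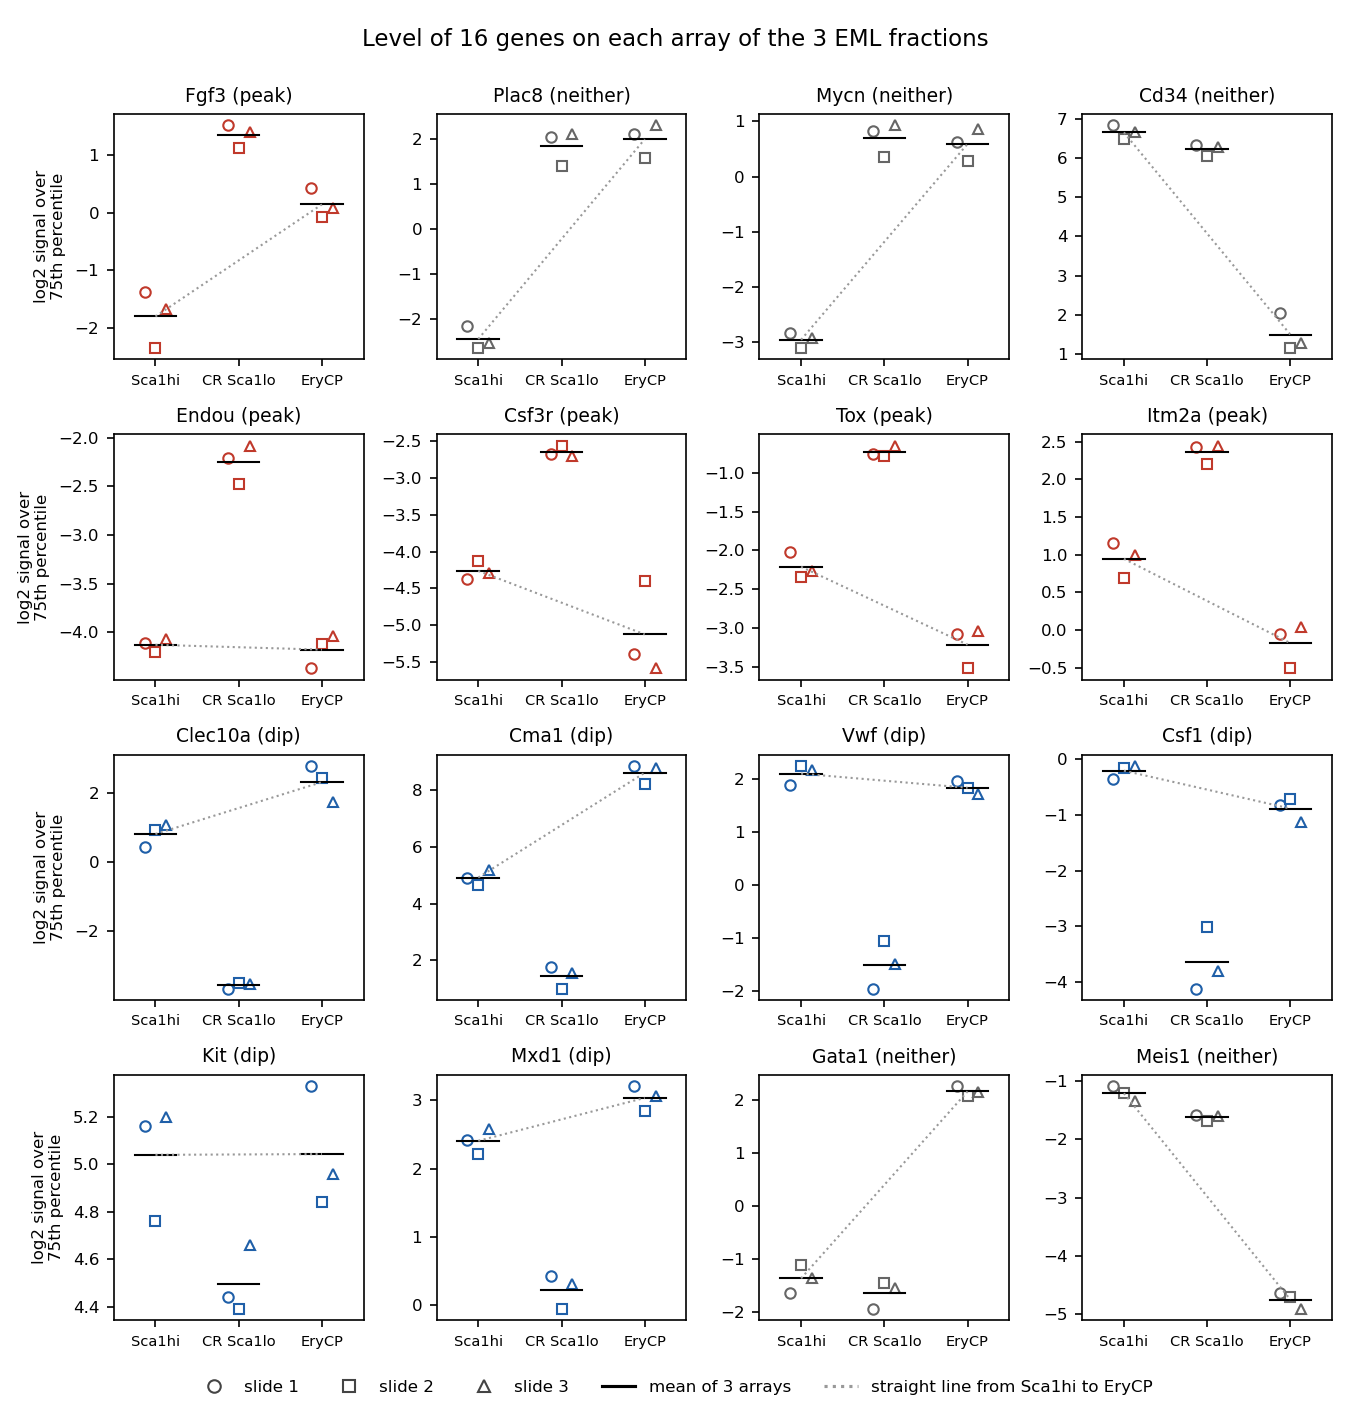
Log2 signal of peak genes, dip genes and genes that were neither (Plac8, Mycn, Cd34, Gata1 and Meis1) on each of the 9 arrays, grouped by fraction. Each point is 1 array, shaped by slide, with a bar at each mean and a dotted line from the Sca1hi to the EryCP mean. In Fgf3 the CR Sca1lo points (1.13 to 1.52) lie above both flanks, and in Clec10a (-3.67 to -3.49) below both.

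The 12 peaks with the largest smaller difference from the flanks were Endou, Cabcoco1, Lypd6b, Csf3r, Ipcef1, Obox1, Lax1, Ctsw, Ldhc, Tox, Slc14a1 and Itm2a. Endou, an RNA endonuclease, measured -4.11, -4.07 and -4.2 in Sca1hi, -2.08, -2.21 and -2.47 in CR Sca1lo, and -4.04, -4.12 and -4.37 in EryCP. All CR Sca1lo arrays lay above all flanking arrays, by 3.67-fold and 3.8-fold (adjusted p = 0.000224 and 0.00011). Csf3r, the receptor for granulocyte colony-stimulating factor, measured -4.37, -4.29 and -4.13, then -2.7, -2.67 and -2.56, then -5.59, -4.4 and -5.39, with 2 of 3 EryCP arrays well above background. It stood 1.62 ± 0.21 above Sca1hi and 2.48 ± 0.21 above EryCP, log2 (adjusted p = 0.00422 and 0.000622). Tox, a nuclear factor used in T cell development, stood 1.48 and 2.48 above, and Itm2a, a membrane protein of activated T cells, 1.42 and 2.53. Lax1 and Ctsw, an adaptor and a cathepsin of lymphocytes, exceeded both flanks by 1.55 to 1.75. Ipcef1, a partner of cytohesin exchange factors, stood 1.72 and 1.56 above the flanks, and Lypd6b, a Ly6-domain protein, 2.71 and 1.64. Ldhc, the lactate dehydrogenase of testis, and Slc14a1, a urea transporter, rounded out the group. Cabcoco1 was well above background on no Sca1hi array and 1 EryCP array, so CR Sca1lo exceeded Sca1hi at least 2.88-fold; its call and that of Obox1, an oocyte homeobox gene well above background on 1 Sca1hi and 1 EryCP array, were kept in 15 and 9 of 24 alternative settings. The other 10 kept theirs in at least 22 alternative settings.

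Several smaller peaks were lineage genes of different kinds. Tfr2, a transferrin receptor of erythroid cells, stood 3.01 above Sca1hi and 0.82 above EryCP; Ms4a3, a granulocyte-monocyte progenitor gene, 1.88 and 1.41; Tcf7, a T cell factor, 0.79 and 2.73 (second probe 0.52 and 1.43); Lck, a T cell kinase, 1.66 and 1.23. Mpo, which encodes neutrophil myeloperoxidase, measured 8.2, 8.28 and 7.82 in Sca1hi, 8.65, 8.79 and 8.22 in CR Sca1lo, and 6.23, 5.45 and 6.16 in EryCP. Its CR Sca1lo and Sca1hi arrays overlapped (0.45 ± 0.1, adjusted p = 0.0238), and the peak was kept in 13 of 24 alternative settings. Among members chosen after their values were seen, Cebpa, the granulocytic C/EBP factor, stood 0.88 and 1.14 above the flanks and the platelet glycoprotein Gp9 0.88 and 0.99. Related genes went the other way: Cebpb, another C/EBP factor, was a dip (-1.61 and -0.43, a shape its second probe lacked, and kept in 15 of 25 alternative settings), and so was Gp1ba, another platelet glycoprotein (-0.36 and -1.7, kept in 9 of 25). Of 17 megakaryocyte and platelet genes measured, 3 lay above the midpoint and 4 below (17.6% and 23.5%), with 3 peaks and 3 dips. Over all genes 10.4% lay above and 7.98% below.

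The dips were larger. The 12 with the largest smaller difference were Clec10a, Cd300lf, Cma1, Vwf, Ccl3, Slc6a4, Nrp1, Gpr162, Csf1, Plau, Mcpt2 and C77080; all 12 kept their call in at least 22 alternative settings. Clec10a, a lectin of macrophages, measured 0.43, 1.06 and 0.93 in Sca1hi, -3.54, -3.67 and -3.49 in CR Sca1lo, and 1.73, 2.42 and 2.78 in EryCP. The CR Sca1lo arrays were all below both flanks, 20.7-fold below Sca1hi and 58.7-fold below EryCP (log2 -4.37 and -5.88, SE 0.28, adjusted p = 0.000311 and 6.49e-05). Vwf, von Willebrand factor of platelets and endothelium, measured 1.88, 2.18 and 2.25, then -1.49, -1.95 and -1.06, then 1.71, 1.84 and 1.96. Its flanks overlapped each other while the middle fraction stood below them by 3.61 and 3.34 on the log2 scale (adjusted p = 0.000144 and 0.000103). Csf1, the macrophage growth factor, measured -0.35, -0.12 and -0.15, then -3.8, -4.12 and -3.02, then -1.13, -0.71 and -0.82, and was 10.8-fold and 6.76-fold lower. Cd300lf, an inhibitory receptor of myeloid cells, was 18.3-fold and 14.2-fold lower than Sca1hi and EryCP by its brightest probe, but its second probe gave log2 differences of only -0.84 and -0.52. Ccl3, a chemokine, was 8.83-fold and 11.7-fold lower. Nrp1, a semaphorin and VEGF co-receptor, was 17-fold and 8.19-fold lower, Plau, the urokinase plasminogen activator, 13.1-fold and 6.28-fold, and Slc6a4, the serotonin transporter, 8.22-fold and 48-fold. Second probes gave log2 differences of -2.52 and -1.53 for Nrp1 and of -2.42 and -1.43 for Plau. Mxd1, a MAX-binding repressor that opposes MYC, was lower by 2.18 and 2.81, and Il7r, a lymphoid cytokine receptor, by 3.59 and 1.19, a dip in 15 of 25 alternative settings. The Il7r values rest on a probe well above background on 2 of 3 CR Sca1lo arrays, and its other probe gave -0.53 and -0.01. A second Mxd1 probe gave -0.67 and -0.94.

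Genes of mast cells, basophils and eosinophils lay mostly below the midpoint: 14 of 18 measured were called below and 1 above, against 7.98% and 10.4% of all genes, with a median of -1.35. Dips among them were Mcpt2, Mcpt4, Cma1, Cma2 and Hpgds and the only peak was Epx, eosinophil peroxidase. Cma1, mast cell chymase, measured 4.9, 5.2 and 4.68 in Sca1hi, 1.55, 1.78 and 1.0 in CR Sca1lo, and 8.78, 8.23 and 8.87 in EryCP. All 3 fractions were separate, with the middle one 11.2-fold below Sca1hi and 146-fold below EryCP (adjusted p = 7.86e-05 and 3.98e-06). Chymase and Mcpt genes have near-identical copies, so single-gene values may carry signal from relatives. Other members of the list ran differently. Hdc, which makes histamine, lay at -0.08 against Sca1hi (adjusted p = 0.77) and -7.74 against EryCP. Mcpt8, a basophil protease, was already 1.22 above Sca1hi in CR Sca1lo (adjusted p = 0.000244) and 4.2 below EryCP. In bulk RNA, fewer mast-like cells and less of these RNAs per cell cannot be told apart. The list's summed level, in units of the 75th percentile, was 287 to 409 in Sca1hi, 291 to 391 in CR Sca1lo and 1020 to 1370 in EryCP.

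Immediate early genes, which respond within minutes to signals, also lay low. Of 17 measured, 11 (64.7%) were called below the midpoint and 1 (5.88%) above, against 7.98% and 10.4% of all genes. The median was -0.72, and 6 were dips, against 3.46% of all genes. By flank the list's median was -0.23 against Sca1hi and -0.71 against EryCP, so the larger gap was to EryCP. Without slide as a block 6 were below with 1 dip, scaling on spike-ins left 7 with 0 dips, and without slide 1, 2 or 3 there were 4, 8 and 8 below with 0, 0 and 4 dips. Zfp36, an RNA-decay factor, measured 1.99, 1.75 and 1.28 in Sca1hi, 1.0, 0.76 and 0.45 in CR Sca1lo, and 2.3, 1.72 and 2.08 in EryCP, all CR Sca1lo arrays being lowest. Chosen after their values were seen, the AP-1 subunits Fos (-0.89 and -2.55), Jun (-0.85 and -1.16) and Junb (-0.72 and -1.07) were dips as well. The 1 above was Myc, the growth-promoting factor, at 0.59 and 0.32 above the flanks, a peak in 11 of 25 alternative settings. Egr1, another early gene, was low by 2.07 against EryCP but not different from Sca1hi (-0.17, adjusted p = 0.275).

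Genes of ribosome assembly were mostly higher in CR Sca1lo. Of 28 measured, 24 (85.7%) were called above the midpoint and 0 below, against 10.4% and 7.98% of all genes. Peaks numbered 10, against 4.02% of all genes. The median was 0.4 with every member between 0.1 and 0.77. Gnl3 (nucleostemin) measured 2.6, 2.51 and 2.15 in Sca1hi, 2.87, 2.89 and 2.58 in CR Sca1lo, and 2.24, 1.89 and 2.29 in EryCP, so CR Sca1lo was 0.36 and 0.64 higher (adjusted p = 0.0124 and 0.00112). Its CR Sca1lo and Sca1hi arrays overlapped. Fbl (fibrillarin, an rRNA methyltransferase) differed by 0.4 and 0.48, Dkc1 (the pseudouridine synthase) by 0.66 and 0.54, and Polr1b, a subunit of RNA polymerase I, by 0.54 and 0.5. The median within slides stayed between 0.37 and 0.41, but the calls did not: 1 of 28 was called when slide was not a block, and 1 after scaling on spike-ins, and with slide 1, 2 or 3 left out 0, 2 and 9. After normexp correction of the median signals the list's median was 0.09 while that of all genes was 0.29. With spots of outlying background left out of that correction, the medians were 0.39 and 0.05, and 25 members were called above.

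The list counts that follow stand against 10.4% of all genes above the midpoint, 7.98% below, 4.02% peaks and 3.46% dips. Cell cycle inhibitors were low, 6 of 11 below the midpoint (54.5%) with a median of -0.36 and 4 dips: Cdkn1a (p21) at -0.94 and -1.19, Cdkn2d at -0.63 and -0.43, Rb1 at -0.7 and -1.67, for which 1 of 2 probes had the shape, and Btg1. Without slide as a block 3 were below with 0 dips, scaling on spike-ins left 2 with 0 dips, and without slide 1 it was 3 with 0 dips. The S phase list had 2 of 22 above and 1 below (Ccne1, cyclin E1, a dip at -0.75 and -0.76), and the mitosis list 1 of 21 above, near the share of all genes. E2f2, an E2F cell cycle factor, dipped by 1.43 and 1.74. Among 25 cytokine receptors, 11 lay below the midpoint and 3 above, with dips in Csf2rb and Csf2rb2 (near-identical genes, 1.51 and 3.15 and 1.63 and 3.95 below the flanks), Il7r, Kit, Il4ra, Tgfbr2 and Ifngr1 and a peak in Csf3r among those above. Of 3 Csf2rb probes, the weakest gave -0.32 and -0.57. Receptors below fell to 7 with 2 dips without slide as a block, and to 5 with 2 dips without slide 1. Of 19 heme and iron genes 11 lay below (57.9%) and 2 above (10.5%), with 4 dips and 1 peak. The list's median was -0.06 against Sca1hi and -0.45 against EryCP, and its highest midpoint difference was 1.91. The count below was 3 when slide was not a block, 4 after scaling on spike-ins and 2, 3 and 5 without slides 1, 2 and 3. Hmox1 (heme oxygenase, 8 arrays) was lower by 1.47 and 0.86, Ftl1 (ferritin light chain) by 1.45 and 0.45, a dip in 13 of 25 alternative settings, and Slc40a1 (ferroportin) by 2.63 and 0.38, a dip in 8 of 25 alternative settings. The 15 myeloid granule genes split, 4 peaks and 2 dips, with a median of 0.01. Of 13 BCL2 family members 5 lay below the midpoint (38.5%) and 1 above (7.69%). The 1 above was Bcl2, which prevents apoptosis, at 0.59 and 0.53 over the flanks, a peak in 18 of 25 alternative settings. Its antagonists Bax, Bid and Bbc3 were dips of 0.34 to 0.55, kept in 9, 17 and 10 of 25 alternative settings. Bcl2, Bax, Bid and Bbc3 were not called off the midpoint without slide as a block, nor with spike-in scaling.

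**Figure D3:**
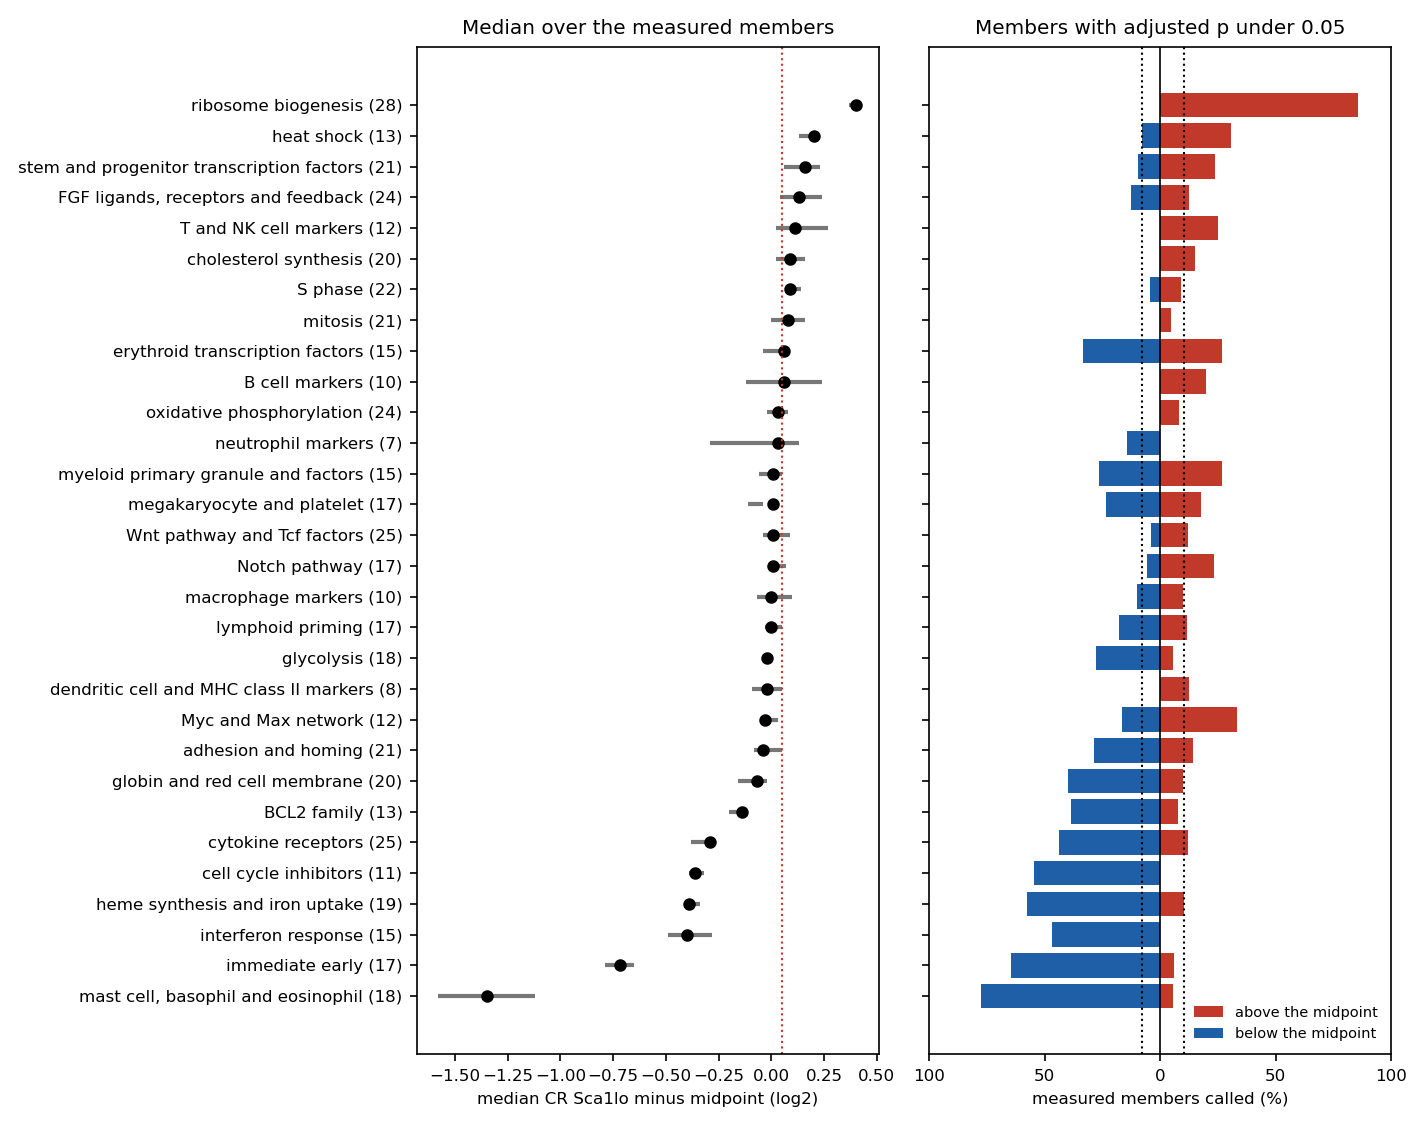
Left, the median CR Sca1lo minus midpoint (log2) of each gene list other than the sorting markers and middle fraction markers, with a bar for its range within the 3 slides and a dotted line at the median of all genes (0.05). Right, the percentage of measured members called above and below the midpoint, with dotted lines at the shares of all genes (10.4% and 7.98%): of the lists plotted, ribosome biogenesis has the highest share above (24 of 28) and the mast cell list the highest share below (14 of 18).

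**Figure D4:**
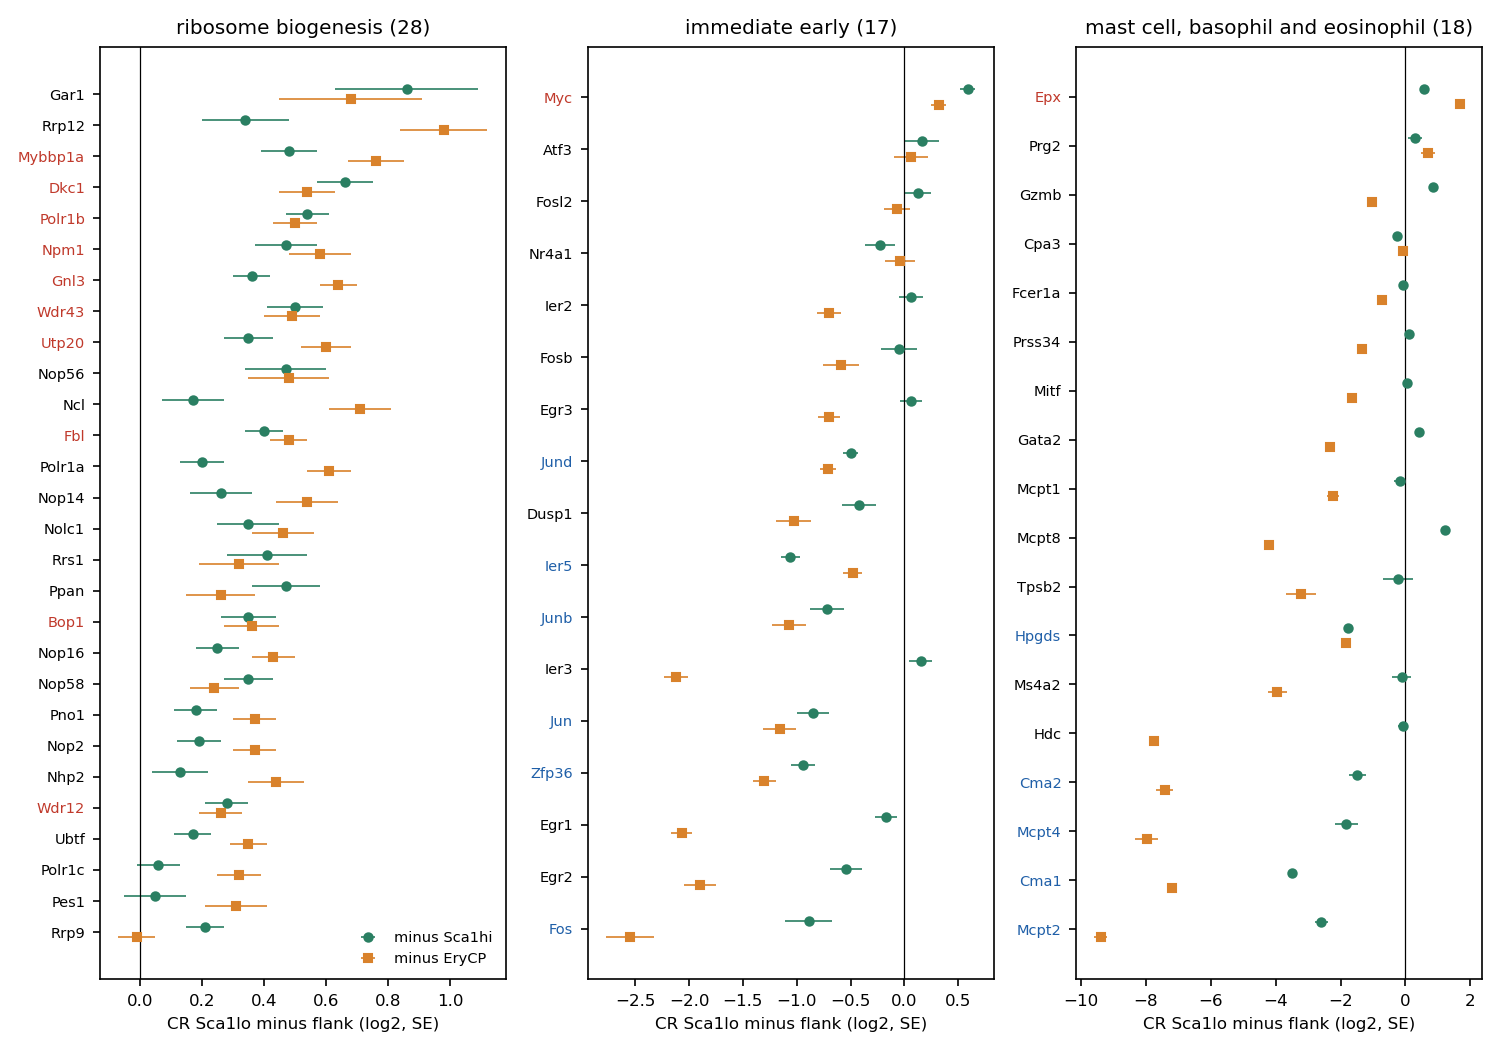
CR Sca1lo minus Sca1hi (circles) and minus EryCP (squares), log2 with SE bars, for each measured member of the ribosome biogenesis, immediate early and mast cell, basophil and eosinophil lists, with peak names in red and dip names in blue. The ribosome members have midpoint differences from 0.1 to 0.77, against medians of -0.72 and -1.35 in the other lists; in the mast cell list the median was -0.09 against Sca1hi and -2.28 against EryCP.

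Many genes in which the end fractions differed were not peaks or dips. Of 5503 genes called between EryCP and Sca1hi (20.8%, with 10.2% higher and 10.6% lower in EryCP), 3208 (58.3%) had CR Sca1lo not called off the midpoint, 297 (5.4%) had it between the ends toward Sca1hi and 209 (3.8%) toward EryCP, and 1789 (32.5%) had its mean outside both. Erythroid transcription factors split, with 4 of 15 above the midpoint and 5 below, against 10.4% and 7.98% of all genes. They held 2 peaks and 1 dip, with a median of 0.06. Zfpm1, the GATA1 cofactor, was a peak (0.57 and 0.54) whose end fractions differed by 0.03 (adjusted p = 0.775). Others were higher in EryCP alone: Gata1 (-0.28 against Sca1hi, adjusted p = 0.237, and -3.81 against EryCP), Klf1 (0.21, adjusted p = 0.483, and -4.38) and the Epo receptor Epor (-0.22 and -2.71). Meis1, a stem cell homeobox factor, stepped down there (3.13 above EryCP), and Cd33, a myeloid lectin, stepped down before CR Sca1lo (-2.17 against Sca1hi). Interferon-response genes, 7 of 15 below the midpoint (46.7%, against 7.98% of all genes), had a median of -1.08 against Sca1hi but 0.28 against EryCP. Without slide as a block, or without slide 1 or 2, 0 of these were called, without slide 3 there were 2 and with spike-in scaling 1. With normexp on the median signal the median turned to 0.16, under the 0.29 of all genes. Leaving out spots of outlying background in that correction gave a median of -0.3, with 9 called below.

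Markers of other blood cells were mostly not called, as was true of all genes, of which 10.4% lay above the midpoint and 7.98% below. The T and NK list had 3 of 12 measured above the midpoint (25%) and 0 below. Its summed level was 40.5 to 56.2 in CR Sca1lo, 41.3 to 59 in Sca1hi and 24.3 to 35.9 in EryCP. Cd3e, Cd3g, Cd3d, Cd4 and Cd8a were not called. Of 10 B cell markers 2 were above (20%), of 10 macrophage markers 1 above and 1 (Clec10a) below (10% each), and of 7 neutrophil markers 1 below (14.3%). Summed macrophage levels were 7.33 to 8.14 in CR Sca1lo, 11.4 to 13.7 in Sca1hi and 8.41 to 11.3 in EryCP, and neutrophil levels 0.865 to 1.37, 0.494 to 0.848 and 11 to 15. The part of these cells in the peaks and dips was not tested.

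The third array set gave independent arrays. It compared CD34+ CD103- cells with CD34- CD103- cells, which differ in the marker that also separates CR Sca1lo from EryCP. There 9.68% of 27362 genes were higher and 7.43% lower. Of 1060 peaks tested, 628 (59.2%) were higher in CD34+ CD103- cells and 2 lower; of 915 dips, 538 (58.8%) were lower and 1 higher. Genes that differed from EryCP in the same direction but were not peaks or dips gave similar shares, 1081 of 1931 (56%) and 826 of 1445 (57.2%). Of those at least 2-fold from both flanks, 54 of 62 peaks were higher and 131 of 136 dips lower. Csf1 measured 0.19, 0.43, 0.73 and 0.65 in CD34- CD103- cells and -3, -2.65, -2.92 and -2.8 in CD34+ CD103- cells, without overlap. Endou measured -4.15, -4.16, -4.06 and -3.94 against -2.8, -2.75, -2.88 and -2.64, again apart, and Fgf3 0.53, 0.19, 0.42 and 0.08 against 0.97, 0.79, 0.75 and 0.55. Plac8 went the other way, 1.06 lower in CD34+ CD103- cells, and Mycn did not differ beyond its spread (-0.22, adjusted p = 0.378).

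After Epo, against the same CD34- CD103- arrays, 3.02% of genes were called, 1.04% higher and 1.98% lower. Peaks were higher in 101 (9.53%) and dips lower in 184 (20.1%), and 87 of 136 dips at least 2-fold below both flanks were lower (64%). Of genes higher in CR Sca1lo than in EryCP but not peaks, 89 of 1931 (4.61%) were higher after Epo. Of genes lower than in EryCP but not dips, 173 of 1445 (12%) were lower. Without CD34- CD103- replicate 1 the counts were 17 peaks and 84 dips, without Epo replicate 2 they were 17 and 96, and without any other single array of the set 32 to 99 peaks and 115 to 190 dips. Spike-in scaling gave 0 peaks and 77 dips. Csf1 measured -2.96, -2.93 and -3.09 after Epo, all below every untreated CD34- CD103- array, and Cma1 6.44, 6.18 and 6.23 against 8.18, 7.92, 8.18 and 7.87. In the second set, Ediff minus the EryCP repeat, 66.9% of genes were called, 49% higher and 18% lower. There peaks were higher in 31% and lower in 40.8%, and dips higher in 34.9% and lower in 46.8%. Of those at least 2-fold from both flanks, 47 of 56 peaks (83.9%, median -2.03) and 106 of 136 dips (77.9%, median -1.75) were lower.

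**Figure D5:**
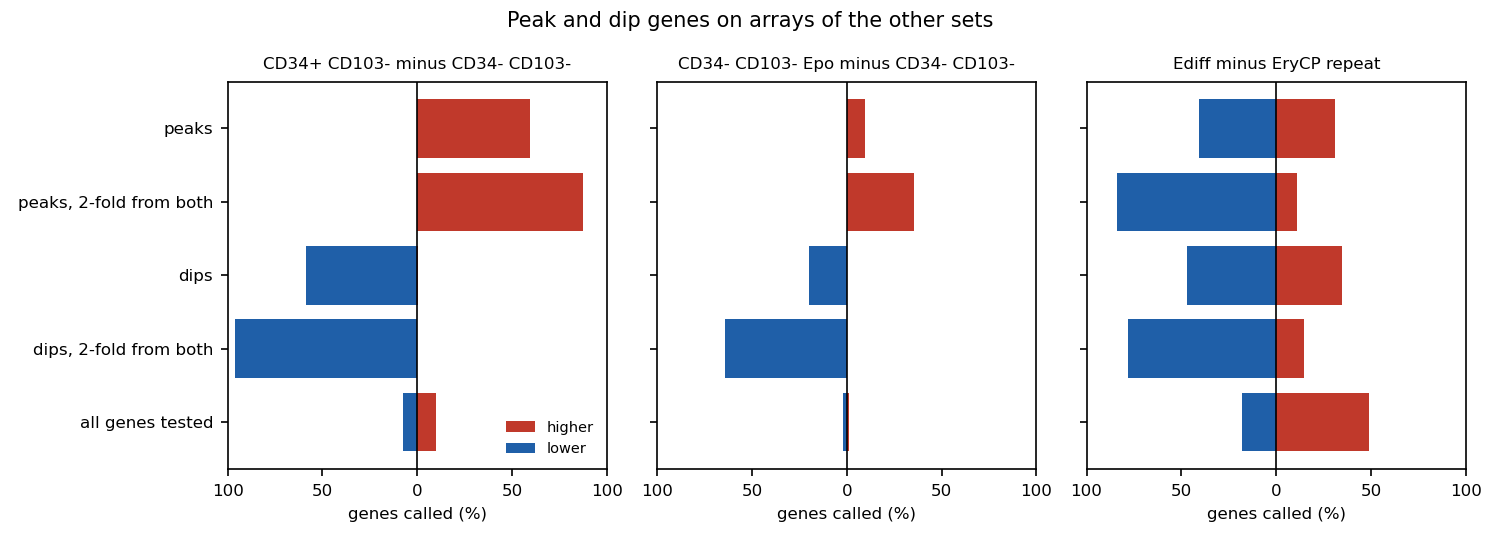
Share of peaks and dips higher and lower in each comparison of the other array sets, beside all genes tested. Peaks are mostly higher (59.2%) and dips mostly lower (58.8%) in CD34+ CD103- cells.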

How the data were processed

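Intensities were deposited by the authors as Agilent Feature Extraction output (versions 10.1.1.1 and 10.7.1.1, per the file headers) for 1-colour Cy3 arrays. The deposited series table of log2 values served as an alternative. Log2 processed signal minus each array's 75th percentile was computed without control spots and spots marked as feature outliers. Spots of a probe were averaged, and each gene was represented by its brightest probe; a probe without a symbol counted as a gene of its own. A probe was kept where it was well above background on every array of at least 1 group, and measured on at least 2 arrays of each. limma 3.58.1 in R 4.3.3 fitted the 9 arrays together with slide as a fixed block, 2-sided, with Benjamini-Hochberg adjustment over 26468 genes, called under 0.05. The fit was tested on simulated data. The other array sets were fitted separately and never compared across sets. The members and gene lists were chosen with earlier results of these data known. One gene that the list counts include is not reported here. Named genes were Plac8, Mycn, Fgf3, the sorting markers, the 12 peaks and 12 dips with the largest smaller difference from the flanks, the 5 largest midpoint differences each way, and up to 4 members of each list with the smallest adjusted p; others are named as chosen after their values were seen or as the members a count covers.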

Additional observations from a re-analysis of the deposited data

Results flagged for a closer look

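In the third array set, 13 genes were examined for an array standing apart in each of 2 groups of 4 arrays, 26 groups in all, and 3 had one; chance gives about 1 in 20. Mpo, myeloperoxidase, measured 7.59 in 1 CD34- CD103- array, the next being 7.38. Plac8 measured 0.68 in 1 CD34+ CD103- array, the next being 0.84. Kit measured 4.29 in 1 CD34- CD103- array, the next being 4.63. The Mpo and Kit flags came from the same array, CD34- CD103- replicate 1, so they are not separate events. That array had 224 spots marked as feature outliers, against 63, 62 and 48 on the others of its group.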

How the results depend on the processing

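Slide treatment, scaling and background correction moved the counts; the normexp corrections of the median signal were added after the data were seen, the others were planned. In the order genes off the midpoint, peaks, dips, genes called between EryCP and Sca1hi that also lay off the midpoint, and peaks and dips moving alike in CD34+ CD103- cells, the values were 4853, 1064, 917, 2295 and 1166. Without slide as a block they were 1033, 101, 218, 483 and 275. With spike-in scaling they were 1024, 164, 149, 430 and 224. With normexp on the median signal they were 1, 0, 0, 1 and 0 in limma, where 501 genes lay off the midpoint and 4 and 106 had the peak and dip shape at an unadjusted p under 0.05. Counting only genes at least 2-fold from both flanks left 64 peaks and 136 dips. Without slide 1 they were 605, 70, 141, 297 and 190; without slide 2, 1550, 201, 289, 722 and 372; without slide 3, 1911, 255, 382, 872 and 499. Leaving out 1 replicate gave 2164 to 4282, 425 to 868, 458 to 736, 1086 to 1737 and 622 to 1188. The other alternatives run (random slide block, quantile normalization, percentile over detected probes, normexp without spots of outlying background, deposited table, both dim-probe filters, probe means, eBayes trend, all 26 arrays) left each count within 1.5 times. With normexp on the median signal, 77.5% of the reported peaks still lay above both flanks and 84.4% of the dips below both. Of genes off the midpoint 56.5% lay above it, against 39.9% without the block and 36.5, 45.5 and 43.9% without slides 1, 2 and 3. The cause of these changes was not tested. Normexp on the mean signal was planned but not run, since no mean-signal column was available here. By replicate number, no paired analysis was possible because the labels number the samples in 1 running series that no fractions share; slide, which held 1 array of each fraction, was the block, and the fits with and without it are given above.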
